A study of Mus musculus with 6 samples.

Results

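The 10 genes described here are the FoxO transcription factors Foxo1, Foxo3 and Foxo4 and 7 genes linked to growth arrest or stress resistance: Ccng2, Tob1, Btg1, Klf2, Klf6, Pink1 and Txnip. They were chosen by name, with earlier results of these data known. Each was read from every probe set whose platform annotation gives it as the only gene symbol. That gave 26 probe sets for 10 of 18193 genes measured. A further probe set shared by Foxo3 and another symbol was not used. RNA came from mouse bone marrow cells sorted as GFP+Lin-c-Kit+Sca-1+, the phenotype of haematopoietic stem cells, and was hybridised to 6 Affymetrix arrays, 2 per group. The first group held cells transduced with BCR/ABL, the fusion kinase of chronic myeloid leukaemia, from mice given imatinib, an inhibitor of that kinase. The second held BCR/ABL cells from mice not given the drug, and the third held cells transduced with the empty GFP vector. Cells of all groups were sorted on GFP. The sources used here do not state strain, age, imatinib dose or duration. They also leave unstated whether replicate arrays represent different animals, so each p-value reflects array-to-array spread that may be technical.

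FoxO factors are transcription factors that switch on genes for cell cycle arrest, antioxidant defence and cell death. Growth factor signalling through PI3 kinase and AKT phosphorylates them, and they then leave the nucleus. BCR/ABL activates that pathway, and in mice FoxO factors are needed to keep blood stem cells quiescent. Transcript levels on an array say nothing of phosphorylation or location in the cell.

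The 9 member genes with a promoter sequence in the RefSeq table of build GRCm38.p6 were searched for the core letters of the FoxO binding element. The windows ran from 250 bases before to 50 bases after the gene start. The letters GTAAACAA, on either strand, were found for Txnip and Btg1 and for 1.23% of all 32851 promoter windows. The shorter form GTAAACA was found for the same 2 of 9 member genes and for 3.65% of all windows. The Txnip match began 121 bases before the start on the gene's strand, and the Btg1 match 205 bases before it on the opposite strand. Both are printed with the match in capitals, and Pink1 is shown as a gene whose levels differed more between treated and untreated BCR/ABL cells but whose window lacks those letters. A match describes the letters and not a bound site. The windows are chr3:96557707-96558006 on the plus strand for Txnip, chr10:96616751-96617050 on the plus strand for Btg1 and chr4:138326247-138326546 on the minus strand for Pink1.
Txnip: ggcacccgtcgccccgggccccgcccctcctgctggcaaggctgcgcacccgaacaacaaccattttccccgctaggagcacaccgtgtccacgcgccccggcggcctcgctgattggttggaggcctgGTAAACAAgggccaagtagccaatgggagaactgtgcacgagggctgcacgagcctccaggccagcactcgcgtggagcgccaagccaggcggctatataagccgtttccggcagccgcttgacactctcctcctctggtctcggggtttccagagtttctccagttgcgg
Btg1: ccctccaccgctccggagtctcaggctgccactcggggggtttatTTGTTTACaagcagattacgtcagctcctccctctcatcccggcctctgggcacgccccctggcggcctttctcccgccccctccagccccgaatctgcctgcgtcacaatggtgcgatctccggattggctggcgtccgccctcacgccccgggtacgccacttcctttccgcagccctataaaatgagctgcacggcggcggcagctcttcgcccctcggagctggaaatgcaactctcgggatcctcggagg
Pink1: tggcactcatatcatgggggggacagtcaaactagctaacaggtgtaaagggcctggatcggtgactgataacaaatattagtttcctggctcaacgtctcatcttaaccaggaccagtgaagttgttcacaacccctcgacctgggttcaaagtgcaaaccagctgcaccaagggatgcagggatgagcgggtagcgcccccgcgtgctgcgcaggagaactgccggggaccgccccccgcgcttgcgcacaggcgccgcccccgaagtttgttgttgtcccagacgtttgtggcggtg

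Deposited values were array intensities scaled to a common trimmed mean, and levels are given here as log2(intensity + 16) after quantile normalization, so that 4 is the floor of the scale. The 2 vector arrays differed most from each other, with 3693 probe sets over 2-fold apart, against 860 between the BCR/ABL arrays and 1612 between the imatinib arrays. Of the sort markers, Kit, the stem cell factor receptor, had log2 levels of 11.38 and 11.39 with imatinib, 10.37 and 10.14 in BCR/ABL cells, and 10.71 and 11.06 in vector cells, and Ly6a, which encodes Sca-1, was not analysed here. Some granulocyte transcripts were bright on every array despite the lineage-negative sort. Named after their values were seen, S100a8 lay at 12.57 to 13.81 and the myeloperoxidase gene Mpo at 13.19 to 13.45 on the log2 scale. Others of that marker list were not, and on vector replicate 2 Mmp8 was at 5.75 and Ngp at 9.33. Marker genes of B cells, T and NK cells, mast cells, megakaryocytes, granulocytes and erythroid cells differed between groups or arrays. Their values stand beside the results they move with. In bulk RNA, fewer cells of a type and less RNA per cell cannot be told apart.

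The comparison of imatinib-treated with untreated BCR/ABL cells asked which transcripts differed with the inhibitor. All 10 genes had a higher mean level with imatinib, as 48.9% of all genes did, and in 9 of them both imatinib arrays lay above both BCR/ABL arrays. Of all 18193 genes, 24.7% showed that separation in that direction and 26.8% in the other. The largest differences were those of Ccng2, Pink1 and Tob1, at 2.49-fold, 2.36-fold and 2.12-fold. No member passed the test: limma called 0 of the 26 probe sets at a Benjamini-Hochberg adjusted p under 0.05, and 0% of the 35877 probe sets tested. At an unadjusted p under 0.05, 9 of the 10 genes were higher, against 7.84% of all genes, and none was lower, against 9.15%. The median log2 change was 0.78 over the 10 genes and -0.01 over all genes.

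**Figure D1:**
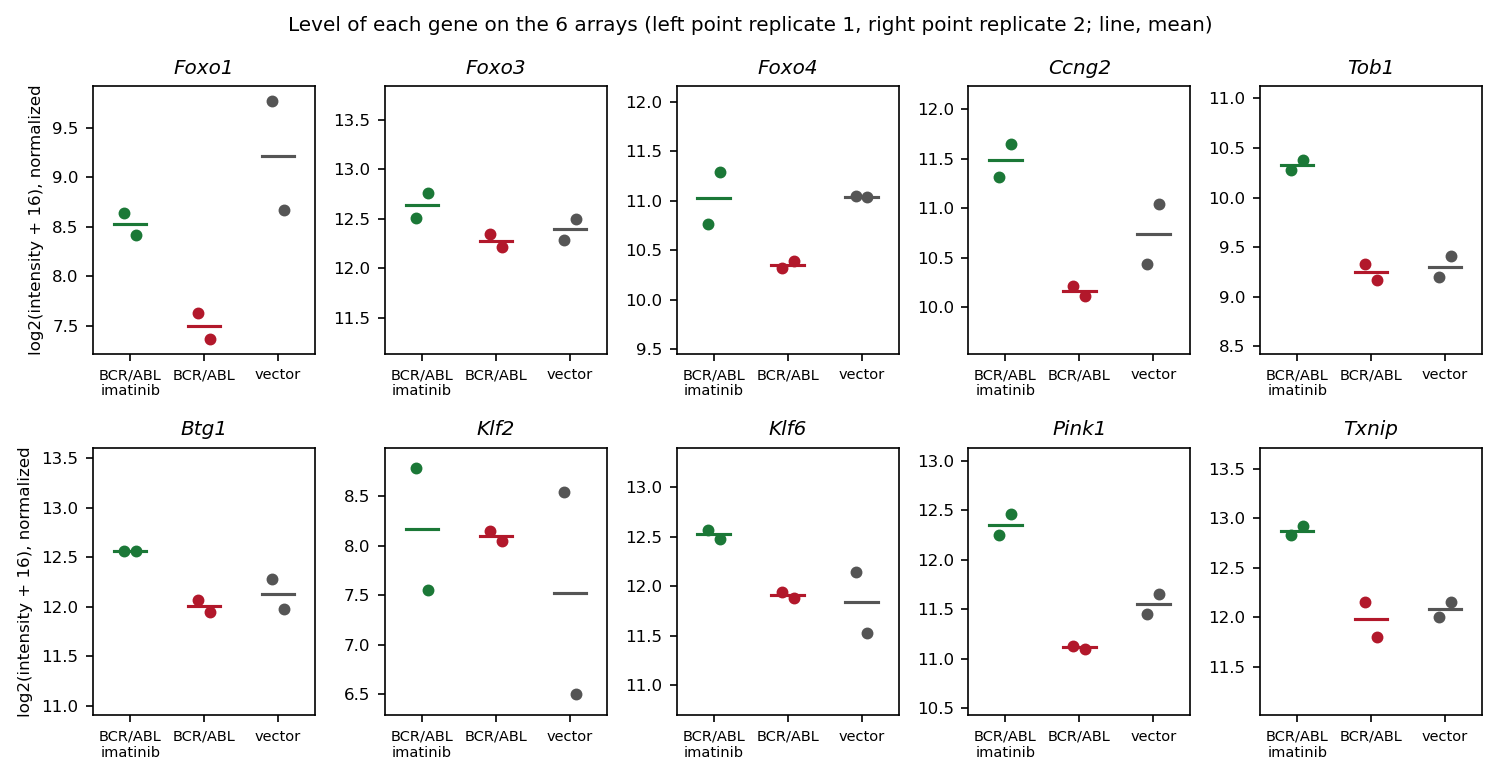
Normalized log2 levels of the 10 genes on each array, by group, with BCR/ABL imatinib at the left, BCR/ABL in the middle and vector at the right. Points are arrays, lines are means of 2 arrays, and each panel spans the same log2 range. In every panel but that of Klf2 both imatinib points lie above both BCR/ABL points.

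Among the FoxO factors, Foxo3, the member with the clearest role in mouse blood stem cells, had log2 levels of 12.51 and 12.76 with imatinib, 12.34 and 12.22 in BCR/ABL cells, and 12.29 and 12.50 in vector cells. The imatinib arrays lay above the BCR/ABL arrays, while BCR/ABL and vector overlapped in this probe set. The difference between imatinib and BCR/ABL was 0.36 on the log2 scale (95% interval 0.06 to 0.65, limma adjusted p = 0.262), and that sign turned, to -0.014, when arrays were centred on their medians. Between BCR/ABL and vector it was -0.11 (interval -0.41 to 0.18, adjusted p = 0.756), so no difference was resolved there. For imatinib minus vector it was 0.24 (adjusted p = 0.446), with the lower imatinib array just above the higher vector array. Dropping imatinib replicate 2 gave 0.23 against BCR/ABL and 0.11 against vector. The other bright Foxo3 probe set differed in its separations: BCR/ABL lay fully below vector, by -0.19, and imatinib overlapped vector. In the dim remaining probe set BCR/ABL lay fully above vector, by 0.32.

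Foxo4, located on the X chromosome, had log2 levels of 10.77 and 11.29 with imatinib, 10.32 and 10.39 in BCR/ABL cells, and 11.05 and 11.03 in vector cells. Both BCR/ABL arrays were below every array of the other groups. The difference was 0.67 for imatinib minus BCR/ABL (interval 0.23 to 1.12, adjusted p = 0.187) and -0.68 for BCR/ABL minus vector (interval -1.13 to -0.24, adjusted p = 0.307). Dropping imatinib replicate 2 gave 0.41 for imatinib minus BCR/ABL. Imatinib and vector cells differed by -0.01 (interval -0.46 to 0.44). The second Foxo4 probe set stayed close to the floor, between 4.42 and 4.89 on all arrays, and carries no usable contrast.

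Foxo1, a factor needed for early B cell development in mice, had log2 levels of 8.65 and 8.42 with imatinib, 7.63 and 7.37 in BCR/ABL cells, and 9.77 and 8.67 in vector cells. The BCR/ABL arrays were lowest, the imatinib arrays came next, and vector replicate 1 stood well above vector replicate 2. The log2 change was 1.03 for imatinib minus BCR/ABL (interval 0.06 to 2.00, adjusted p = 0.315) and -1.72 for BCR/ABL minus vector (interval -2.69 to -0.74, adjusted p = 0.271). The next brightest Foxo1 probe set had the same signs, with -1.35 for BCR/ABL minus vector. Both remaining ones were dim, with mean levels of 6.22 and 5.64, and gave -1.38 and -0.17. Dropping vector replicate 1 gave -1.18 for BCR/ABL minus vector, and dropping vector replicate 2 gave -2.26. For imatinib minus vector it was -0.69 (adjusted p = 0.509), and dropping those arrays gave -0.14 and -1.24.

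The intensities of 12 B cell marker genes summed to 730 and 1839 with imatinib, 1363 and 2521 in BCR/ABL cells, and 25426 and 5101 in vector cells. Vector replicate 1 therefore held the most B cell transcripts and also the highest Foxo1. All 12 markers were lower in BCR/ABL than in vector cells, with a median log2 change of -2.85. Dropping vector replicate 1 left 2 of the 12 higher and a median of -1.31. Their part in the Foxo1 difference from vector was not tested. Between imatinib and BCR/ABL cells Foxo1 and the B cell markers went opposite ways: all 12 markers had a lower mean with imatinib, with a median of -0.97. Ebf1, a transcription factor that specifies B cells, had log2 levels of 4.76 and 5.29 with imatinib, 6.85 and 8.05 in BCR/ABL cells, and 12.04 and 9.27 in vector cells. The recombinase gene Rag1 was at 4.39 and 4.37 with imatinib, 4.71 and 6.50 in BCR/ABL cells, and 10.85 and 9.19 in vector cells. Both were thus high in vector cells and near the floor with imatinib. Markers with an intensity below 16 numbered 6 and 4 with imatinib, 3 and 2 in BCR/ABL cells, and 1 and 2 in vector cells, and Pax5, named after its values were seen, was among them on all 6 arrays.

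**Figure D2:**
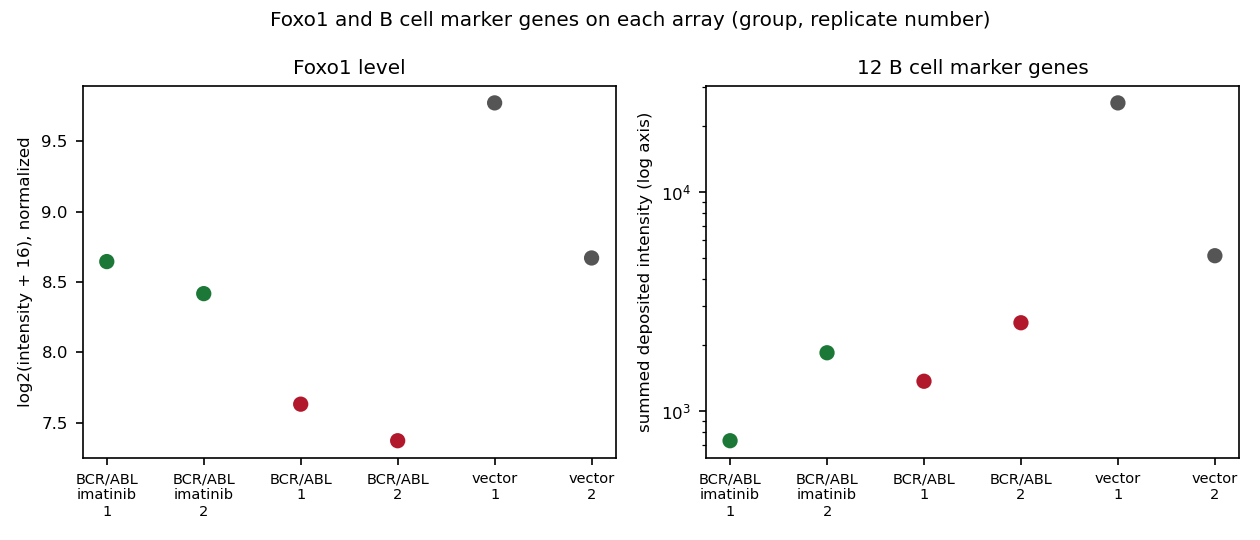
Left, normalized log2 level of Foxo1 on each array. Right, summed deposited intensity of 12 B cell marker genes on a log axis. Vector replicate 1 is highest in both panels, and the BCR/ABL arrays are lowest for Foxo1, whereas the imatinib and BCR/ABL arrays overlap in the B cell sum.

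The next genes restrain the cell cycle. Ccng2, an unconventional cyclin that slows division and a known FoxO target, had log2 levels of 11.32 and 11.65 with imatinib, 10.21 and 10.12 in BCR/ABL cells, and 10.43 and 11.04 in vector cells. The 3 groups did not overlap, with imatinib highest and BCR/ABL lowest. The change was 1.32 for imatinib minus BCR/ABL (SE 0.23, interval 0.76 to 1.87, adjusted p = 0.120), and 0.89% of all genes had a larger one. It was -0.57 for BCR/ABL minus vector (adjusted p = 0.424) and 0.75 for imatinib minus vector (adjusted p = 0.265). Dropping vector replicate 1 gave -0.88 and 0.44 for those comparisons, and dropping vector replicate 2 gave -0.27 and 1.05. Its dimmer probe set gave 1.27, -0.22 and 1.05 for the same 3 comparisons, and so the same signs. In that probe set BCR/ABL and vector overlapped.

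Tob1, which recruits the CCR4-NOT deadenylase and holds lymphocytes in quiescence, had log2 levels of 10.28 and 10.38 with imatinib, 9.33 and 9.17 in BCR/ABL cells, and 9.19 and 9.41 in vector cells. The imatinib arrays stood apart, and the BCR/ABL arrays lay within the vector range or just below it. The change was 1.08 for imatinib minus BCR/ABL (SE 0.17, interval 0.68 to 1.49, adjusted p = 0.109) and 1.03 for imatinib minus vector (interval 0.62 to 1.43, adjusted p = 0.135). For BCR/ABL minus vector it was -0.06 (interval -0.46 to 0.35), a sign that turned without BCR/ABL replicate 2, without vector replicate 2 or with array medians. A second Tob1 probe set was at the floor, at most 4.26.

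Btg1, an antiproliferative partner of the same deadenylase machinery, had log2 levels of 12.56 and 12.57 with imatinib, 12.07 and 11.95 in BCR/ABL cells, and 12.29 and 11.98 in vector cells. The imatinib arrays nearly coincided above all others. The change was 0.55 for imatinib minus BCR/ABL (interval 0.27 to 0.84, adjusted p = 0.139), 0.43 for imatinib minus vector (adjusted p = 0.232) and -0.12 for BCR/ABL minus vector (adjusted p = 0.730). The other bright Btg1 probe set gave 0.71 and the dimmer one 0.57 for imatinib minus BCR/ABL, so all 3 shared that sign. Dropping vector replicate 2 gave 0.28 for imatinib minus vector. In the other bright probe set BCR/ABL lay fully below vector, by -0.20.

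The Krüppel-like factors did not behave alike. Klf6, a zinc finger factor that induces the CDK inhibitor p21, had log2 levels of 12.57 and 12.48 with imatinib, 11.94 and 11.88 in BCR/ABL cells, and 12.15 and 11.53 in vector cells. Imatinib was above both other groups, and the BCR/ABL arrays lay inside the vector range. The change was 0.61 for imatinib minus BCR/ABL (interval 0.14 to 1.09, adjusted p = 0.240) and 0.68 for imatinib minus vector (interval 0.21 to 1.16, adjusted p = 0.244), and dropping vector replicate 2 gave 0.37 for imatinib minus vector. For BCR/ABL minus vector it was 0.07 (adjusted p = 0.926). All 5 Klf6 probe sets were higher with imatinib than in BCR/ABL cells, by 0.31 to 1.01 on the log2 scale.

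Klf2, which keeps lymphocytes quiescent and is a FoxO target in them, had log2 levels of 8.78 and 7.56 with imatinib, 8.15 and 8.05 in BCR/ABL cells, and 8.54 and 6.50 in vector cells. The replicates of the imatinib and vector groups were far apart, by 1.23 in the imatinib group and 2.04 in the vector group, and each range enclosed or overlapped the others. Its change was 0.07 for imatinib minus BCR/ABL, with an interval from -1.73 to 1.87 (adjusted p = 0.986), which includes differences as large as that of Ccng2 in either direction. Without imatinib replicate 1 the sign turned, to -0.54, and with array medians it was -0.087. For BCR/ABL minus vector the value was 0.58, with 1.61 when vector replicate 1 was dropped and -0.43 when vector replicate 2 was.

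The remaining genes act in mitochondrial and redox control. Pink1, the kinase that marks damaged mitochondria for removal, had log2 levels of 12.25 and 12.46 with imatinib, 11.13 and 11.10 in BCR/ABL cells, and 11.45 and 11.66 in vector cells. The 3 groups were fully separate, in the order imatinib, vector, BCR/ABL. The change was 1.24 for imatinib minus BCR/ABL (SE 0.12, interval 0.95 to 1.53, adjusted p = 0.102), 0.80 for imatinib minus vector (interval 0.51 to 1.09, adjusted p = 0.123) and -0.44 for BCR/ABL minus vector (interval -0.73 to -0.15, adjusted p = 0.307).

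The second Pink1 probe set gave 1.19, 0.64 and -0.55 in the same order, with the same separation of all 3 groups. The first probe set passed the threshold for imatinib minus BCR/ABL when arrays were centred on their medians (0.86, adjusted p = 0.0332) and when only probe sets above the 50th percentile of mean level were tested (adjusted p = 0.0232).

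Txnip, an arrestin-like protein that inhibits thioredoxin and glucose uptake, had log2 levels of 12.83 and 12.92 with imatinib, 12.15 and 11.81 in BCR/ABL cells, and 12.01 and 12.16 in vector cells. Both imatinib arrays exceeded all 4 others, whose groups overlapped. The change was 0.90 for imatinib minus BCR/ABL (interval 0.58 to 1.22, adjusted p = 0.109), 0.79 for imatinib minus vector (interval 0.47 to 1.11, adjusted p = 0.138) and -0.10 for BCR/ABL minus vector (interval -0.42 to 0.22, adjusted p = 0.804). The dimmer Txnip probe set gave 1.28 for imatinib minus BCR/ABL and 1.60 for imatinib minus vector, but 0.32, the opposite sign, for BCR/ABL minus vector. With the filter at the 50th percentile the adjusted p of Txnip was 0.0366 against BCR/ABL and 0.0354 against vector.

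**Figure D3:**
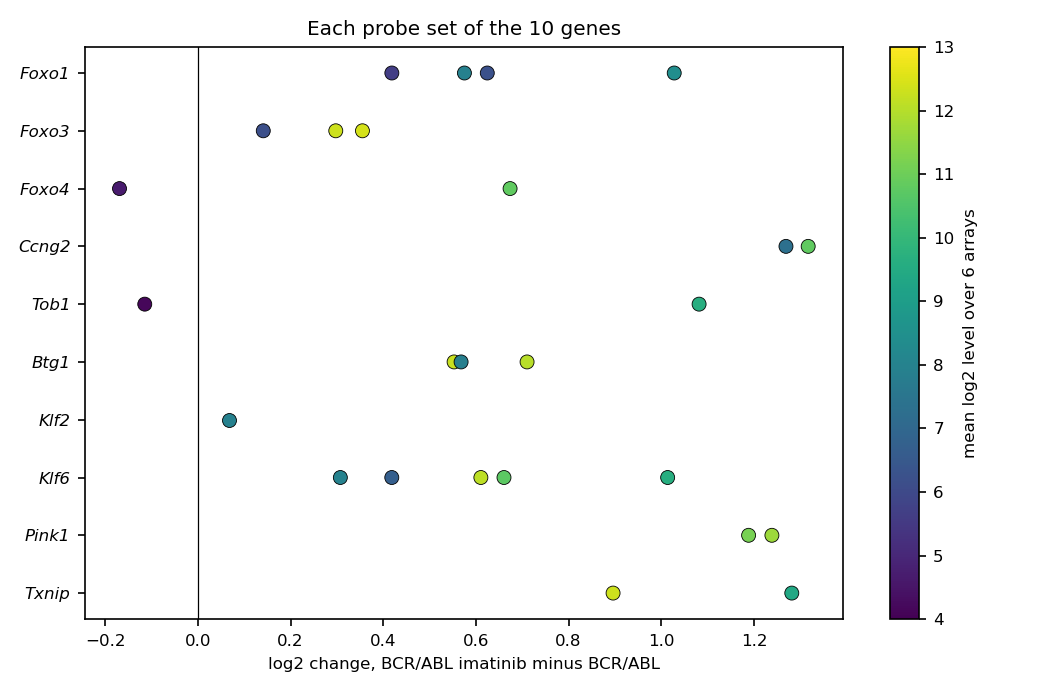
Log2 change between imatinib-treated and untreated BCR/ABL cells for each of the 26 probe sets, 1 point each, coloured by mean log2 level. The points left of 0 are the Foxo4 and Tob1 probe sets at the dark, dim end of the scale.

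Across probe sets, 21 of the 26 had both imatinib arrays above both BCR/ABL arrays, against 22.5% of all probe sets, and 1, the floor-level Tob1 probe set, had them below, against 27%. Probe sets of the same gene share its transcripts and are not separate evidence. With arrays centred on their medians the median of all genes moved to -0.27 for imatinib minus BCR/ABL. Under that scaling 6 of the 10 genes kept higher imatinib arrays without overlap, against 9.22% of all genes, and the median of the 10 was 0.42.

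Some features of the arrays moved with this comparison, and their part in it was not tested. For beta-actin, the ratio of 3-prime over 5-prime probe signal, which depends on RNA quality and labelling, was 1.74 and 1.55 with imatinib, 1.48 and 1.30 in BCR/ABL cells, and 1.81 and 1.62 in vector cells. The intensities of 10 mast cell and basophil markers summed to 66046 and 56183 with imatinib, 43029 and 42512 in BCR/ABL cells, and 16604 and 11340 in vector cells. For 8 megakaryocyte markers the sums were 7129 and 6816 with imatinib, 4071 and 3445 in BCR/ABL cells, and 1896 and 2083 in vector cells. Both sums followed the order imatinib, BCR/ABL, vector. The mean levels of Klf6 and Klf2 had that order too, and those of the other 8 members were lowest in BCR/ABL cells. For imatinib minus BCR/ABL the median log2 change was 0.82 over the mast cell and basophil markers and 0.67 over the megakaryocyte markers. The mast cell marker Hdc passed the limma test for BCR/ABL minus vector, at 2.35 (adjusted p = 0.0234). For imatinib minus vector Hdc passed at 2.44 (adjusted p = 0.036) and Tpsab1 at 5.81 (adjusted p = 0.0482). Of 11 stem cell markers, 10 were higher with imatinib than in BCR/ABL cells, with a median log2 change of 0.47, and 0 passed. Of 16 immediate early and handling stress genes, 7 were higher and 9 lower with imatinib than in BCR/ABL cells, with a median of -0.25. Without overlap 4 were higher and 7 lower, against 24.7% and 26.8% of all genes, and 0 passed. The largest values were those of Hspa1b at -2.75, Egr2 at -2.58 and Atf3 at -2.52.

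The comparison of BCR/ABL with vector cells asked which of these transcripts differed between cells with and without the kinase. Foxo1, Foxo4, Ccng2 and Pink1 were lower in BCR/ABL cells, at 0.304, 0.622, 0.673 and 0.737 of the vector level, and both BCR/ABL arrays lay below both vector arrays in each. That made 4 of 10 genes, against 20% of all genes with such a separation downwards, and no member was separated upwards, against 23.9% of all genes. By the probe set with the highest mean, Foxo3, Tob1, Btg1, Klf2, Klf6 and Txnip overlapped between the groups. Other probe sets of Foxo3 and Btg1 had BCR/ABL fully below vector, and another of Foxo3 and 2 of Klf6 had it fully above. The dimmer probe set of Ccng2, the dimmest of Foxo1 and the floor-level one of Foxo4 overlapped between the groups. None of the 26 probe sets passed, where 0.0613% of all probe sets did. At an unadjusted p under 0.05 the same 4 genes were lower, against 5.53% of all genes. The median change was -0.12 over the 10 genes and 0.01 over all genes. Dropping vector replicate 1 made the median of the 10 genes -0.20, and dropping vector replicate 2 made it -0.27. With array medians its sign turned, to 0.08 with 6 of 10 higher, where the median of all genes was 0.20. With array medians 2 of the 10 genes showed downward separation, against 7.73% of all genes.

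Granulocyte markers moved with this comparison and with vector replicate 2, and their part in the results was not tested. Of 11 measured, 9 were higher in BCR/ABL than in vector cells, with a median log2 change of 0.58, and none passed. Without overlap 7 were higher and 0 lower, against 23.9% and 20% of all genes. Leaving out vector replicate 2 lowered the median of these markers to 0.21, and leaving out vector replicate 1 raised it to 1.13. Their intensities summed to 85155 and 90568 with imatinib, 78625 and 89391 in BCR/ABL cells, and 79818 and 51067 in vector cells. The lactoferrin gene Ltf had log2 levels of 12.11 and 12.02 with imatinib, 11.94 and 12.29 in BCR/ABL cells, and 11.71 and 7.29 in vector cells. Vector replicate 2 was thus low in these transcripts, and it was also the lowest array for Klf2 and Klf6. For 8 erythroid markers the sums were 16894 and 8840 with imatinib, 12932 and 10599 in BCR/ABL cells, and 17764.5 and 10578 in vector cells. In each group replicate 1 had the higher erythroid sum and the higher Klf2, and the part of these markers was not tested. Of 8 T and NK cell markers, 7 were lower in BCR/ABL than in vector cells, with a median of -0.72. Without vector replicate 1 that median was 0.029, with 4 of the 8 higher. Of these 8, those with an intensity below 16 numbered 6 and 2 with imatinib, 6 and 4 in BCR/ABL cells, and 0 and 6 in vector cells.

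The comparison of imatinib-treated BCR/ABL cells with vector cells asked where treated cells stood relative to cells without the kinase. Both imatinib arrays were above both vector arrays for Foxo3, Ccng2, Tob1, Btg1, Klf6, Pink1 and Txnip, 7 of 10 genes, against 21.8% of all genes. Foxo1 was separated downwards, against 22.3% of all genes, and Foxo4 and Klf2 overlapped. For Foxo1 the nearest arrays were at 8.65 with imatinib and 8.67 with vector. That separation was absent under the deposited scaling alone and when a gene's probe sets were averaged. In the other Foxo1 probe sets imatinib overlapped vector or, in the dimmest, lay fully above it. No member probe set passed, where 0.0446% of all probe sets did, and at an unadjusted p under 0.05 there were 6 of 10 genes higher, against 8.91%. The largest value was that of Tob1, at 2.04-fold. The median change was 0.66, and it was 0.36 with vector replicate 2 dropped. These 3 comparisons share their arrays in pairs, so that their values for a gene are not independent.

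**Figure D4:**
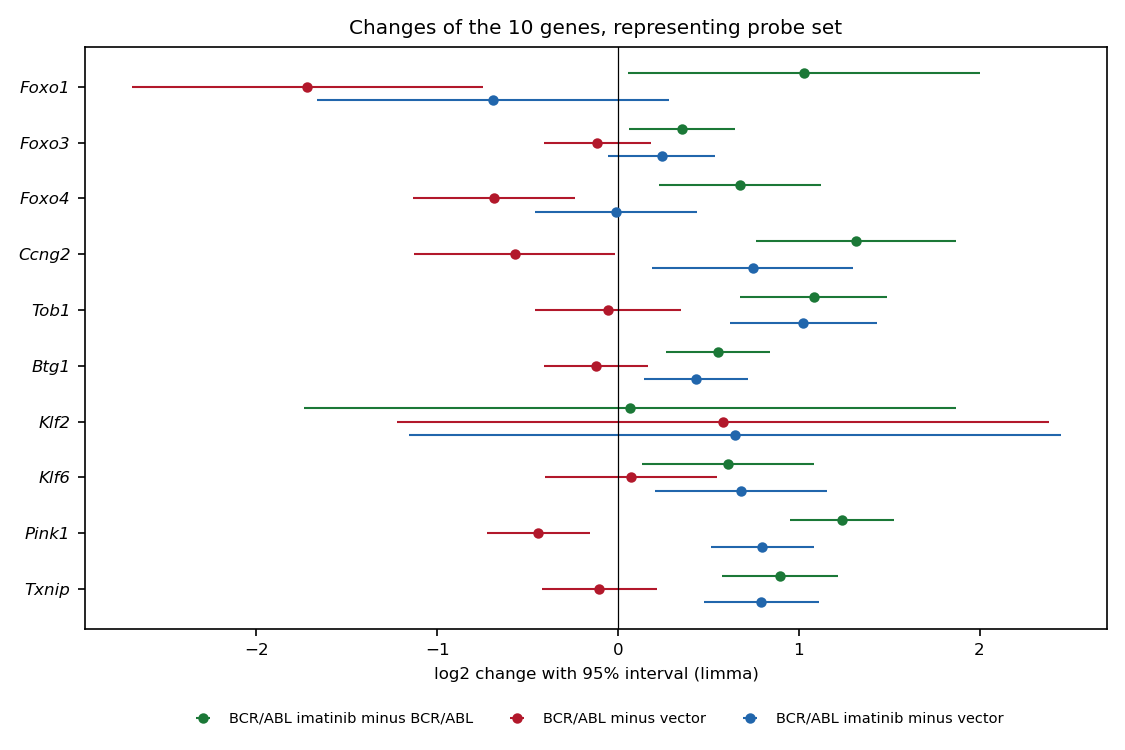
Log2 changes of the 10 genes with 95% intervals from limma, by comparison, each from the probe set with the highest mean level. For imatinib minus BCR/ABL every interval but that of Klf2 lies right of 0, while for BCR/ABL minus vector those of Foxo1, Foxo4, Ccng2 and Pink1 lie left of 0. These intervals are not adjusted for the number of genes tested.

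Genes around the FoxO pathway were read from lists chosen by name, also with earlier results of these data known. Each was read through the probe set with the highest mean level. Counts give means that were higher, and 0 genes of any of these lists passed the test in any of the 3 comparisons. Of 42 measured genes in a list of other FoxO targets, 29 were higher with imatinib than in BCR/ABL cells, 23 of them without overlap. The other 13 were lower, 8 of them without overlap. Of all genes, 24.7% were higher and 26.8% lower without overlap. The median log2 change of the 42 was 0.40, or 0.17 with array medians. The list was not split into genes that FoxO factors raise and genes that they lower. The largest values were those of Pik3ip1, an inhibitor of PI3 kinase, at 2.09 (adjusted p = 0.109), the interleukin 7 receptor gene Il7r at 2.04 and the ubiquitin ligase gene Fbxo32 at 1.77.

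Pik3ip1 had log2 levels of 11.995 and 12.40 with imatinib, 10.29 and 9.92 in BCR/ABL cells, and 10.39 and 10.98 in vector cells, and its imatinib arrays stood above all others. Il7r, which lymphoid progenitors express, was at 11.21 and 10.27 with imatinib, 8.43 and 8.96 in BCR/ABL cells, and 11.08 and 10.01 in vector cells, and so was low only in the BCR/ABL arrays. Cdkn1b and Bcl2l11 were picked from the list after their values were seen, and no gene that was lower with imatinib was picked. The CDK inhibitor gene Cdkn1b was at 11.91 and 12.01 with imatinib, 11.10 and 10.95 in BCR/ABL cells, and 11.64 and 11.59 in vector cells. The cell death gene Bcl2l11 was at 11.65 and 11.07 with imatinib, 9.98 and 9.46 in BCR/ABL cells, and 10.04 and 9.97 in vector cells. Cdkn1b was lowest in BCR/ABL cells, as Pink1 was, whereas Bcl2l11 was high only with imatinib, as Tob1 was. For BCR/ABL minus vector 18 of the 42 genes were higher and 24 lower, with a median of -0.06, a sign that turned without vector replicate 2 (0.059, 22 higher) and with array medians (0.15, 23 higher). For imatinib minus vector 32 were higher, with a median of 0.34.

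Kinases, phosphatases and 14-3-3 proteins upstream of FoxO showed no common direction: 13 of 30 measured genes were higher and 17 lower with imatinib than in BCR/ABL cells, with a median of -0.05, and with array medians 5 were higher. The largest value was that of Skp2, a ubiquitin ligase subunit that targets FoxO1 and p27, at -0.71 (adjusted p = 0.142), with log2 levels of 9.35 and 9.41 with imatinib against 9.98 and 10.19 in BCR/ABL cells. Phlpp1, a phosphatase of AKT, and Rictor, a subunit of the kinase complex that activates AKT, had 0.64 and 0.62.

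Relatives of the members were uneven. All 6 other TOB, BTG and CNOT genes measured had higher means with imatinib than in BCR/ABL cells, with a median of 0.23, but with array medians 1 of 6 did and the median was -0.09. Btg2 had the largest value, 0.96 (adjusted p = 0.353). Of 12 other KLF factors 8 were higher, with a median of 0.42, or 7 and 0.16 with array medians. Klf9 had log2 levels of 11.86 and 11.85 with imatinib, 11.03 and 10.42 in BCR/ABL cells, and 10.31 and 10.13 in vector cells, while Klf5 was lower with imatinib, at -0.96.

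Among Txnip relatives and the thioredoxin system 6 of 11 were higher, with a median of 0.0062, a sign that turned to -0.32 with array medians. The arrestin genes Arrdc3 and Arrdc4 had the largest values, 1.26 and 1.02, and Mlx, the partner of the glucose-sensing factors that activate Txnip, had -0.60. Of 12 genes that act with Pink1, 5 were higher and 7 lower, with a median of -0.11, and with array medians none was higher. In the quantile normalized values none differed by more than the 0.42 by which Pgam5 was lower. DNA replication and mitosis genes lay the other way from the members: 2 of 23 were higher and 21 lower with imatinib than in BCR/ABL cells, with a median of -0.24. Without overlap 12 were lower and 1 higher, against 26.8% and 24.7% of all genes. With array medians 0 of the 23 were higher and their median was -0.60, where that of all genes was -0.27. The thymidylate synthase gene Tyms had -1.65 and the mitotic kinase gene Plk1 -0.93.

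**Figure D5:**
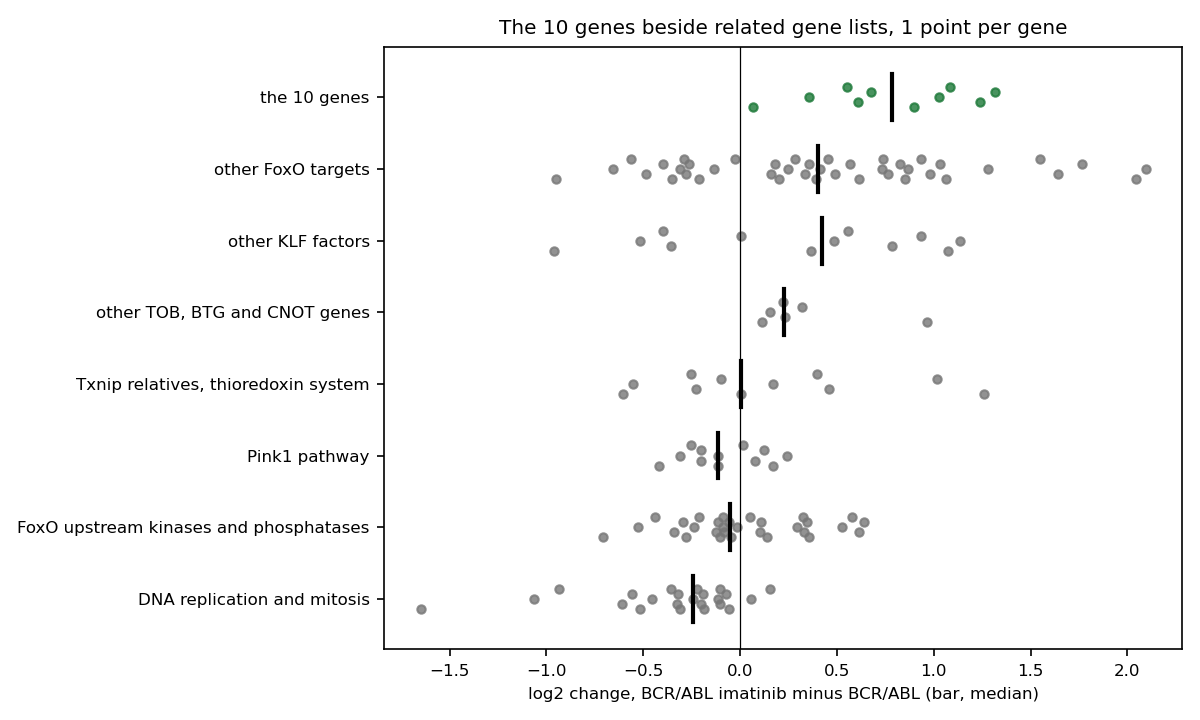
Log2 change between imatinib-treated and untreated BCR/ABL cells for the 10 genes and 7 related lists, 1 point per gene, with the median as a bar. The medians run from 0.78 for the 10 genes, 0.42 for other KLF factors and 0.40 for other FoxO targets to -0.24 for DNA replication and mitosis.

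The genes with the profile most like that of each FoxO factor over the 6 arrays were found by the root mean square difference between centred log2 profiles. For Foxo1 the closest was Trib2, a pseudokinase gene, at 0.19, followed by Slc12a9 and a probe set annotated to Mir1931, both at 0.26. For Foxo3 they were Irf2bp2 at 0.036, Fli1 at 0.038 and Gatad2b at 0.044, and for Foxo4 Arid4a at 0.053 and Irf9 and Erdr1 at 0.074 each. Foxo3 varied little between arrays, so that many genes lie close to it.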

How the data were processed

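The table holds 45101 probe sets on 6 arrays. The deposited values are linear intensity values made by the authors with Affymetrix Expression Console and MAS5, per the submitters' processing notes. Their versions are unstated in the sources used here, and detection calls were not used. The trimmed mean was 500.002 on every array. The design text names a whole-transcript array, but the probe set identifiers and annotation are those of a 3-prime mouse array, and were used as given; which labelling applied is not settled.

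Values were taken as log2(intensity + 16), which understates changes of dim genes. Array medians ran from 5.69 to 6.19, beyond the tolerance of 0.1, so arrays were quantile normalized. The test was that of limma 3.58.1 (R 4.3.3), by lmFit and eBayes (trend=TRUE) in 1 model of all 6 arrays with 3 residual and 2.97 prior degrees of freedom. P-values are two-sided and Benjamini-Hochberg adjusted over 35877 probe sets with a symbol, control probe sets left out, with a threshold of 0.05. The fit was tested on simulated data. Each gene was read from whichever of its probe sets had the highest mean. Members were all named. From each list the genes past the threshold, or else the 3 largest changes, could be named. Cdkn1b, Bcl2l11, Sod2, Prdx3, Cat, Kit, S100a8, Mpo and Pax5 are named outside that rule. For each FoxO factor the 3 genes of nearest profile were named. The members and lists were chosen with earlier results of these data known. The number of arrays limits the precision. The alternatives were another added constant, other scalings, a filter on dim probe sets, another prior variance, the replicate block, the mean of a gene's probe sets and leaving out each array.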

Additional observations from a re-analysis of the deposited data

How the results depend on the processing

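Of 390 member changes recomputed under the alternatives, 365 kept their direction and their side of the threshold, 6 passed it and 19 changed sign. Member probe sets past the threshold for imatinib minus BCR/ABL numbered 0, but 2 with array medians (both of Pink1) and 5 above the 50th percentile (Btg1, Ccng2, Txnip and both of Pink1). For imatinib minus vector they numbered 0, but 2 above the 50th percentile (Pink1 and Txnip), and 0 for BCR/ABL minus vector under every alternative run. Leaving out each array in turn gave 0 in all 3 comparisons.

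Over all probe sets, the 0 calls for imatinib minus BCR/ABL became 3 with 1 as the added constant, 1198 with array medians (67 higher and 1131 lower) and 212 above the 50th percentile. The 22 for BCR/ABL minus vector became 83, 298 and 134 in that order, and the 16 for imatinib minus vector became 78, 275 (201 higher and 74 lower, against 15 and 1) and 181. Both became 0 with a prior variance not tied to signal. Leaving out 1 array gave 0 to 38 for BCR/ABL minus vector and 0 to 55 for imatinib minus vector. With the replicate block the counts were 0, 22 and 9 and no member passed. Differences between replicates 1 and 2 correlated at 0.15 between imatinib and BCR/ABL, 0.16 between imatinib and vector and -0.08 between BCR/ABL and vector, and the samples share only a number.

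Signs turned with array medians for Foxo3 (-0.014) and Klf2 (-0.087) in imatinib minus BCR/ABL and for Foxo3 (0.078), Tob1 (0.15), Btg1 (0.082) and Txnip (0.10) in BCR/ABL minus vector. The construction of that scaling shifts all genes, by -0.27 for imatinib minus BCR/ABL and 0.20 for BCR/ABL minus vector. When a gene's probe sets were averaged they turned for Foxo3 (0.0070), Tob1 (0.0021) and Txnip (0.11) in BCR/ABL minus vector and Foxo4 (0.0063) in imatinib minus vector; the cause was not tested. Leaving out 1 array gave ranges that crossed 0 for Klf2 (-0.54 to 0.69) in imatinib minus BCR/ABL; for Tob1 (-0.17 to 0.054), Btg1 (-0.28 to 0.034), Klf2 (-0.43 to 1.61), Klf6 (-0.24 to 0.38) and Txnip (-0.28 to 0.070) in BCR/ABL minus vector; and for Foxo4 (-0.27 to 0.25) and Klf2 (-0.37 to 1.68) in imatinib minus vector. Genes lower without overlap in BCR/ABL than in vector numbered 4, or 2 with array medians, an alternative chosen after seeing the data. Detection calls were not used here, so dim probe sets cannot be separated from background.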
